A study of Bubalus bubalis with 36 samples.

Results

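Inguinal adipose tissue (IAT), a subcutaneous depot, was compared with perirenal adipose tissue (PRAT), a visceral depot around the kidney, in the same 6 buffaloes (Bubalus bubalis). The 12 libraries were chosen by their depot labels and paired by animal number, out of 36 libraries in the series. All animals were handled alike: weaning was at 3 months, fattening began at 15 months and slaughter was at 20 months. The labels give no breed, sex or treatment. In the series each animal also gave back (BSAT), sternal (SSAT), omental (OAT) and pericardial (PCAT) fat, and those 24 libraries served to show where the inguinal and perirenal pair stands apart. What was sequenced was small RNA of whole fat tissue, which holds adipocytes with vessels, stroma, blood and immune cells.

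MicroRNAs (miRNAs) are short RNAs that guide Argonaute proteins to messenger RNAs and lower their output. Some sit inside the HOX gene clusters, whose genes record position along the body axis, and fat depots keep such positional programmes in adult life. Others lie in the imprinted DLK1-DIO3 region, whose non-coding RNAs come from the maternal copy. The miR-200 family marks epithelial cells.

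Library totals were 11175382 to 13448792 counts in IAT and 9484589 to 13704623 in PRAT. All 6 IAT libraries carry the letter B in their library names, as do PRAT libraries 3, 5 and 6, and PRAT libraries 1, 2 and 4 carry the letter A, whose meaning the labels do not give. Some single libraries stood apart. PRAT library 2 held far more miR-200 than the others, PRAT library 6 held muscle miR-1, and IAT library 6 held the most leukocyte miRNA and the most miR-200 among IAT. No adipocyte messenger RNA is measured in small RNA libraries, so the tissue label was checked through miRNAs of other cells, given with the results.

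The comparison asked which miRNAs differ between subcutaneous and visceral fat at the caudal end of the trunk. Of 667 features tested, 389 with miRNA names and 278 candidate loci without one, a single feature passed an adjusted p of 0.05 in edgeR's quasi-likelihood test with Benjamini-Hochberg adjustment. This was 0.150% of the features tested. It was miR-9-5p, which fell in inguinal fat. Without adjustment, p was under 0.05 for 66 features (9.90%), 36 of them higher (5.40%) and 30 lower (4.50%) in IAT. DESeq2 called 14 features (7 in each direction) and limma called 5 (2 higher and 3 lower). In the same edgeR fit, the 4 pairs of depots that share no library with IAT or PRAT gave 15 calls for BSAT against OAT (2.25%), 37 for SSAT against OAT (5.55%), 65 for BSAT against PCAT (9.75%) and 90 for SSAT against PCAT (13.5%). Whether the numbers of calls differ between pairs was not tested.

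miR-9-5p, best known from neural progenitors, was a low-level miRNA. Its lowest, median and highest levels were 2.85, 6.95 and 8.97 CPM (counts scaled to a common library size, with TMM factors) in IAT and 14.6, 22.5 and 42.0 CPM in PRAT. Both depots were separate without overlap, and IAT was the lower in 6 of 6 animals. The fitted log2 difference was −1.99 ± 0.43 (SE; 95% interval −2.86 to −1.11), with an adjusted p of 0.0444 in edgeR's test. PRAT libraries 1 and 2, both of letter A, were the highest of the 12, and IAT libraries 1 and 2 the lowest. With the library letter as a covariate the difference was −1.57 (adjusted p 0.168), and in letter B libraries alone −1.70 (adjusted p 0.259), so the call was lost while the direction stayed. The call was also lost without animal 1, 2, 4 or 5, without IAT library 1, 2, 4 or 5, without PRAT library 1, 2 or 5, and in fits of the 12 libraries alone (adjusted p 0.339 with and 0.0849 without the animal block). Back and sternal fat, set against omental and pericardial fat, gave −2.47 ± 0.31 for this miRNA (adjusted p 1.11e-06), and the 2 differences did not differ by the test (difference 0.49 ± 0.50, adjusted p 0.831). Other neural miRNAs gave no call: of the 11 tested members of the neural list miR-9-5p was the called one, 7 of 11 were above 0, and the list's median was 0.09.

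Groups without overlap were rare, 5 of 667 features (0.750%). miR-9-5p and miR-378b were lower in IAT, and miR-199b, miR-22-5p and the candidate locus NC_059164.1_21941 were higher. miR-22-5p, the less abundant arm of a miRNA linked to fat cell formation, had 216, 242 and 273 CPM as lowest, median and highest values in IAT and 146.02, 179 and 191 CPM in PRAT. Its log2 difference was 0.45 ± 0.19, with an adjusted p of 0.387 in edgeR's test. miR-378b stayed under 1.5 CPM in every library of both depots. In all, 27 features (4.05%) were higher and 20 (3.00%) lower in IAT in 6 of 6 animals.

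Several features lay next to the threshold and are named after their values were seen. At an adjusted p of 0.0531 stood miR-199b and the candidate locus NC_059165.1_25340, higher in IAT, and miR-429, miR-200a, miR-200b and miR-1949, lower in IAT. miR-23a (higher) and miR-885 (lower) followed at 0.0616 and miR-497 (higher) at 0.0727. miR-199b, a product of mesenchymal cells, had 339, 623 and 1227 CPM (lowest, median, highest) in IAT and 237, 249 and 332 CPM in PRAT. Its log2 difference was 1.40 ± 0.33 and its adjusted p was 0.0531 in edgeR's test. IAT was higher in 6 of 6 animals, and the PRAT libraries lay close together while the IAT libraries were spread. From the same family, miR-199a-5p had a log2 difference of 1.07 ± 0.36 (adjusted p 0.269) and miR-199a-3p 0.66 ± 0.35 (adjusted p 0.556). Family members differ little in sequence, so the authors' counting may divide reads among them. The difference of miR-199b was close to that of back and sternal against omental and pericardial fat, 1.51 ± 0.23, and the 2 did not differ by the test (adjusted p 0.979). Of 6 tested stromal and smooth muscle miRNAs 5 were above 0, with a list median of 0.56 against −0.11 over all features. miR-143, the most abundant of them, was −0.20 ± 0.33 (adjusted p 0.824). No member passed edgeR's test, 2 had an unadjusted p under 0.05, and miR-199b was called by DESeq2 and by limma. With the library letter as a covariate the log2 difference of miR-199b was 1.21 (adjusted p 0.228 in edgeR's test). In letter B libraries alone it was 1.11 (adjusted p 0.440). Fits of the 12 libraries alone gave adjusted p of 0.339 with and 0.173 without the animal block.

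miR-23a and miR-27a, made from 1 precursor transcript with miR-24 and reported to restrain adipocyte formation, were higher in inguinal fat in every animal. miR-23a had 2461, 7219 and 15633 CPM in IAT and 2098, 2711 and 4628 CPM in PRAT. The ranges overlapped because IAT library 3, at the low end, lay within the PRAT range. The log2 difference was 1.39 ± 0.37 (adjusted p 0.0616). For miR-27a-3p the levels were 9807, 14419 and 21219 CPM in IAT and 6569, 9092 and 11618 CPM in PRAT, a log2 difference of 0.74 ± 0.23 with an adjusted p of 0.154. Its other arm, miR-27a-5p, gave 1.37 ± 0.53 (adjusted p 0.350). miR-24-3p, from the same transcript and from the paralogous one, was −0.26 ± 0.70 (adjusted p 0.873). Of the 8 tested arms of the miR-23, miR-27 and miR-24 clusters 6 were above 0, none passed edgeR's test, 3 had an unadjusted p under 0.05, and DESeq2 called miR-23a. In letter B libraries alone, the log2 difference of miR-23a was 0.97 (adjusted p 0.516), against 1.15 with the letter as a covariate.

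**Figure D1:**
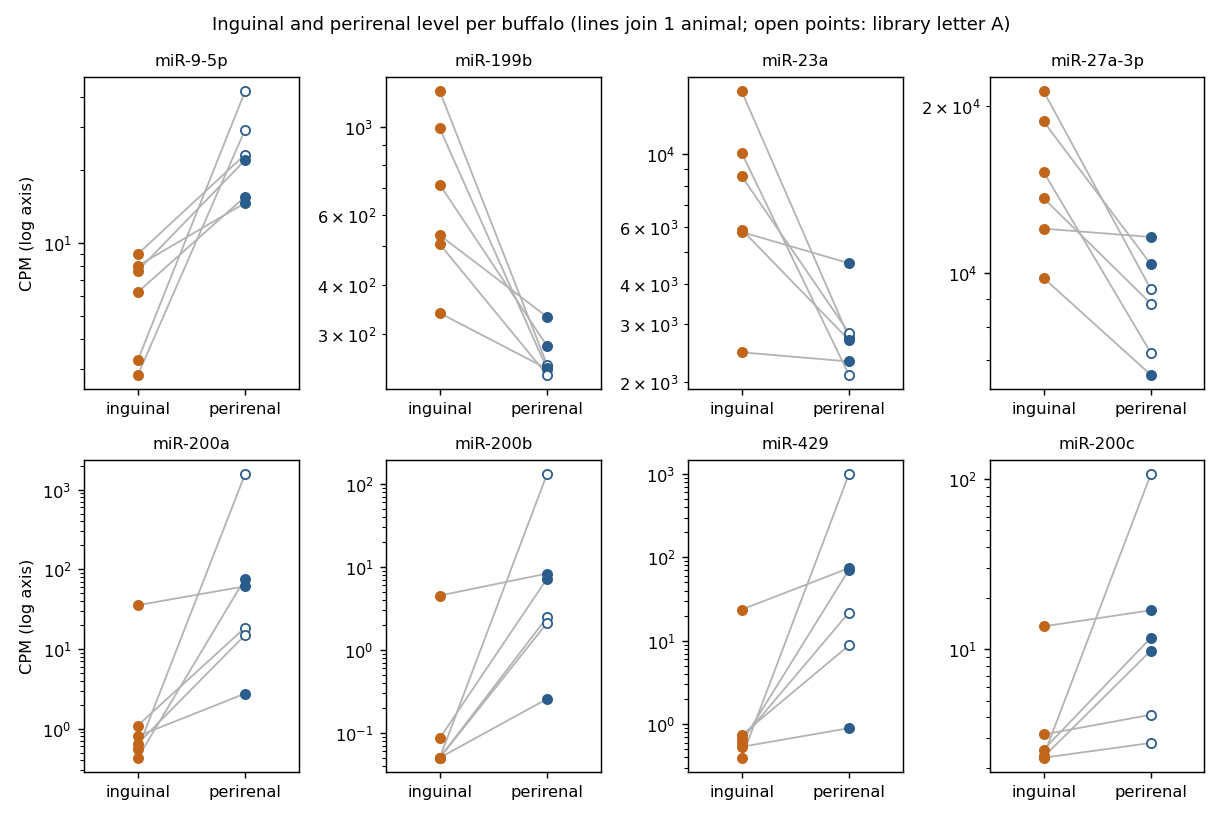
Level of 8 miRNAs in inguinal (left, orange) and perirenal (right, blue) fat of 6 buffaloes, in CPM on a log axis, with a line for each animal and open points for libraries of letter A. Values under 0.05 CPM are drawn at 0.05. miR-9-5p and miR-199b do not overlap between depots, and miR-23a and miR-27a-3p are higher in inguinal fat in 6 of 6 animals. The miR-200 family members drawn (miR-200a, miR-200b, miR-429 and miR-200c) are lower in inguinal fat in 6 of 6 animals, with a wide spread.

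The miR-200 family, which keeps epithelial cells in their epithelial state by repressing ZEB factors, was nearly absent from most inguinal libraries. miR-200a had 0.430, 0.725 and 35.4 CPM in IAT and 2.75, 39.8 and 1562 CPM in PRAT. The highest IAT value came from animal 6 and the highest PRAT value from animal 2, and in every animal IAT was lower. miR-429 had 0.395, 0.628 and 23.7 CPM in IAT and 0.894, 46.3 and 995 CPM in PRAT. miR-200b was at 0 in 4 of 6 IAT libraries, with a highest value of 4.50 CPM, against 0.255, 4.81 and 130.4 CPM in PRAT. miR-200c, from a second cluster, had 2.31, 2.48 and 13.7 CPM in IAT and 2.82, 10.8 and 107 CPM in PRAT. The fitted log2 difference was −5.84 ± 1.49 for miR-200a, and it was −5.89 ± 1.44 for miR-429 and −6.27 ± 1.62 for miR-200b, each with an adjusted p of 0.0531 in edgeR's test, and −2.03 ± 0.58 for miR-200c (adjusted p 0.0909). The median of the 6 animals' own differences was nearer to 0, at −4.06 (miR-200a), −4.03 (miR-429), −3.92 (miR-200b) and −1.18 (miR-200c). Without animal 2 the fitted difference was −4.22 in miR-200a, −4.54 in miR-429, −4.42 in miR-200b and −1.17 in miR-200c. Without PRAT library 2 that of miR-200c was −1.28, and without animal 6 that of miR-200b was −9.61 (adjusted p 0.0248). PRAT library 2 carries the letter A. With the letter as a covariate the fitted differences were −5.03 (miR-200a), −4.91 (miR-429), −4.91 (miR-200b) and −1.79 (miR-200c), with adjusted p from 0.228 to 0.262 in edgeR's test. In letter B libraries alone they were −4.72, −4.32, −3.83 and −1.75 in the same order, with adjusted p from 0.297 to 0.354. DESeq2 called these 4 members. miR-141, a further tested member, had a log2 difference of −2.20 (adjusted p 0.288 in edgeR's test) and was called in 0 of 26 alternatives. In animal 4 it was higher in IAT, at 0.740 CPM against 0.323 CPM in PRAT.

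Over the whole epithelial list, the summed level was 5.95 to 77.9 CPM in IAT (median 8.16) and 16.9 to 2813 CPM in PRAT (median 107). Of its 6 tested members 5 were below 0 and 5 of those had an unadjusted p under 0.05, with a list median of −4.02. miR-183, which is made with miR-96 and miR-182 in sensory and epithelial cells, was on the other side at 1.67 ± 0.72 (adjusted p 0.388). In bulk tissue, fewer cells of a type and less RNA per cell cannot be told apart. No kidney or gut member was called by edgeR, DESeq2 or limma, and 1 of 3 had an unadjusted p under 0.05. miR-192, abundant in kidney and gut epithelium, had 439.6, 643 and 833 CPM in IAT and 664, 836 and 1513 CPM in PRAT, lower in 6 of 6 animals, with a log2 difference of −0.62 ± 0.25 and an adjusted p of 0.374. PRAT library 2 was the highest of the 12 for miR-192 as well as for the miR-200 family. The summed kidney and gut level was 594 to 1334 CPM in IAT and 978 to 1945 CPM in PRAT, and the part of these markers in the miR-200 difference was not tested. For miR-200a the other depots gave a like difference, −5.61 ± 1.03, for back and sternal against omental and pericardial fat (test of the difference, adjusted p 0.994). For miR-200c they gave −0.54 ± 0.39 (adjusted p 0.372), and the gap to the inguinal minus perirenal difference was −1.49 ± 0.67 (adjusted p 0.393).

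No HOX-cluster miRNA passed the test between the inguinal and the perirenal depot. miR-196b, from the HOXA cluster, had 1627, 2572 and 5809.7 CPM in IAT and 1532, 2354 and 4876 CPM in PRAT, with a log2 difference of 0.56 ± 0.58 (95% interval −0.63 to 1.75, adjusted p 0.702). miR-196a, from HOXB and HOXC, had 189.8, 324 and 586 CPM in IAT and 139, 212 and 369 CPM in PRAT, a difference of 0.56 ± 0.63 (−0.72 to 1.84, adjusted p 0.720). The ranges of miR-196b overlapped through most of their length, and IAT was higher in 4 of 6 animals. Those of miR-196a overlapped in part, with IAT libraries 1, 4 and 5 above the PRAT range. IAT was higher for miR-196a in 5 of 6 animals. miR-10b, from HOXD, had 9862, 11810.1 and 18266 CPM in IAT and 8588, 14542 and 23024 CPM in PRAT, a difference of −0.23 ± 0.25 (−0.74 to 0.29, adjusted p 0.720). For miR-10a, from HOXB, the difference was −0.51 ± 0.31 (−1.15 to 0.13, adjusted p 0.563), with medians of 525 CPM in IAT and 885 CPM in PRAT. miR-615, from HOXC, reached at most 2.15 CPM in IAT and 1.40 CPM in PRAT, a difference of 1.25 ± 0.74 (adjusted p 0.563). None of the 5 passed edgeR's test, none had an unadjusted p under 0.05, and neither DESeq2 nor limma called one. The intervals allow differences of over 2-fold for 4 of the 5, the exception being miR-10b, so equal levels are not shown.

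In back and sternal fat against omental and pericardial fat, all 5 HOX-cluster miRNAs were called higher, with adjusted p from 8.48e-10 to 0.0157, though not each pair of depots followed this order. miR-196b averaged 2143 ± 1342 CPM in BSAT and 1181 ± 1003 CPM in SSAT, against 85.9 ± 156 CPM in OAT and 14.9 ± 11.1 CPM in PCAT (SD, n = 6 each). The caudal depots averaged 3229 ± 1633 CPM in IAT and 2629 ± 1198 CPM in PRAT. PRAT thus stood with the subcutaneous depots and far above the other visceral depots. miR-196a followed the same order, with 360 ± 176 CPM in IAT, 216 ± 84.0 in PRAT, 124.3 ± 77.5 in BSAT, 18.0 ± 7.14 in SSAT, 7.82 ± 13.3 in OAT and 0.728 ± 0.644 in PCAT. The spread of OAT came mostly from 1 library in each case. miR-10b was at 12649 ± 3039 CPM in IAT, 15144 ± 5752 in PRAT, 13064 ± 2911 in BSAT and 14799 ± 5165 in SSAT, all within each other's spread, and at 6179.6 ± 2638 in OAT and 1916 ± 631 in PCAT.

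**Figure D2:**
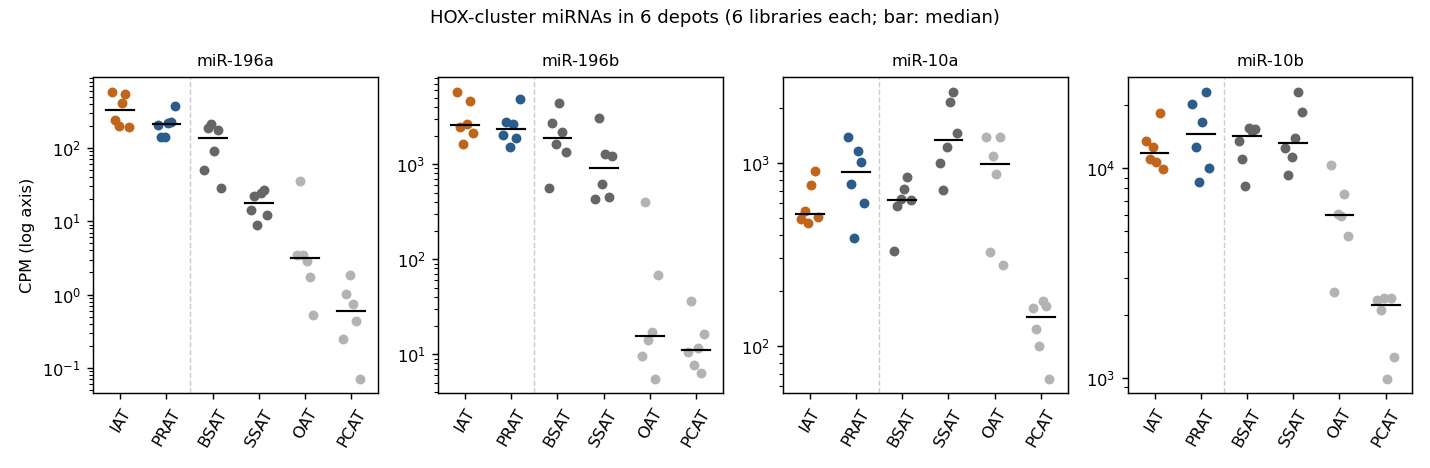
Levels of 4 HOX-cluster miRNAs in CPM on a log axis, 6 libraries per depot, with the inguinal (IAT) and perirenal (PRAT) depots left of the dashed line, then back (BSAT), sternal (SSAT), omental (OAT) and pericardial (PCAT) fat. Bars are medians. For miR-196a and miR-196b the perirenal libraries lie with the subcutaneous ones or above, while the pericardial libraries are far lower, as are the omental ones except 1 library, which lies above the sternal range for miR-196a and just below it for miR-196b.

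A second contrast in the same fit took the inguinal minus perirenal difference less the difference of back and sternal minus omental and pericardial fat. It tested whether these 2 differences differ, and a call does not say which depot sets them apart. PRAT was not tested against the back, sternal, omental or pericardial depot. Across all features 18 of 667 passed (2.70%), 11 of them above 0 and 7 below. Back and sternal against omental and pericardial fat gave 99 calls on their own (14.8%), 40 higher (6.00%) and 59 lower (8.85%). Without adjustment, p was under 0.05 for 70 features of the second contrast (10.5%). For miR-196b that difference was 5.97 ± 0.51, and the caudal difference was smaller by 5.41 ± 0.77 on the log2 scale (adjusted p 3.28e-05 in edgeR's test). The same test gave −4.06 ± 0.81 for miR-196a (adjusted p 0.00341), −2.26 ± 0.32 for miR-10b (adjusted p 3.28e-05) and −2.06 ± 0.39 for miR-10a (adjusted p 0.00226). For miR-615 it gave −0.75 ± 0.85 (adjusted p 0.860). Thus 4 of the 5 tested HOX-cluster members were called, all below 0, against 1.05% of all features called below 0. miR-196a, miR-196b and miR-10b were called under all 27 alternatives, and miR-10a under 26, the exception being letter B libraries alone (−1.56, adjusted p 0.0672). The mean of OAT and PCAT joins unlike levels of miR-10a, which averaged 620.0 ± 170.0 CPM in BSAT and 1493 ± 676 CPM in SSAT, against 886 ± 494 CPM in OAT and 132 ± 43.1 CPM in PCAT, so BSAT lay below OAT. miR-615 averaged 0.719 ± 0.431 CPM in BSAT and 0.772 ± 0.309 CPM in SSAT, against 0.660 ± 0.518 CPM in OAT and 0.0490 ± 0.120 CPM in PCAT, and the first 3 lay within each other's spread.

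**Figure D3:**
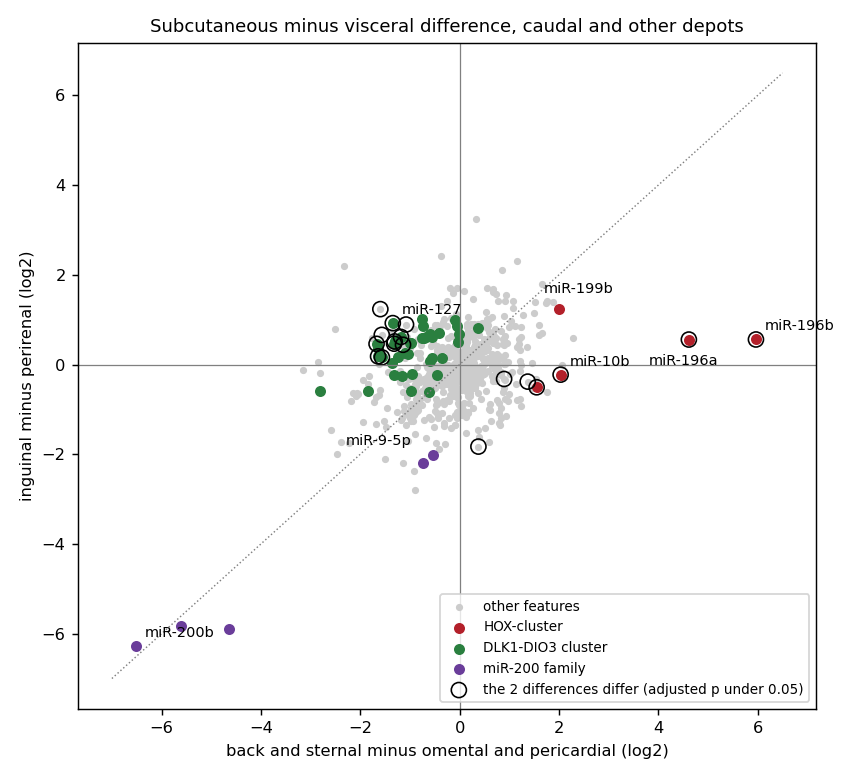
Inguinal minus perirenal log2 difference (vertical) against back and sternal minus omental and pericardial log2 difference (horizontal), 1 point for each of 667 features, with ringed points where the 2 differ at an adjusted p under 0.05. The dotted line marks equal differences. The 5 HOX-cluster members lie right of 0 and below the dotted line, 4 of them ringed, miR-200a, miR-200b and miR-429 lie at the lower left near the line, and all 39 DLK1-DIO3 members lie above it.

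DLK1-DIO3 miRNAs were the second group with several calls in the second contrast. Between inguinal and perirenal fat, 31 of 39 tested members were above 0 and 8 below, with a median log2 difference of 0.47, while 43.2% of all features were above 0. None passed edgeR's test, none was called by DESeq2 or limma, and 3 had an unadjusted p under 0.05, all higher in IAT. miR-127, encoded opposite RTL1 and the most abundant member, had 13509, 34959.5 and 48278 CPM in IAT and 9549.6, 16752 and 26146 CPM in PRAT. It was higher in IAT in 6 of 6 animals, with a log2 difference of 0.92 ± 0.39 and an adjusted p of 0.386. The summed level of the list was 14512 to 51150.0 CPM in IAT (median 37957) and 10639.9 to 29352 CPM in PRAT (median 18533). Animal 6 was low in both depots.

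In the other depots the members lay mostly on the opposite side. Back and sternal fat against omental and pericardial fat had 38 of 39 members below 0, with a median of −0.97. miR-127 averaged 18175 ± 7849 CPM in BSAT and 10885 ± 5166 CPM in SSAT, and 29763 ± 16524 CPM in OAT and 41756 ± 9670.5 CPM in PCAT. For some members the mean of OAT and PCAT joins unlike levels. miR-411c-5p averaged 42.4 ± 18.1 CPM in BSAT, 25.2 ± 10.2 in SSAT, 51.5 ± 19.7 in OAT and 117 ± 43.4 in PCAT. For miR-381 these averages were 16.0 ± 8.28, 7.54 ± 2.91, 21.7 ± 12.2 and 51.0 ± 12.5 CPM. In both, BSAT and OAT lay within each other's spread. In the second contrast all 39 members were above 0, with a median of 1.30, while 48.9% of all features were. Called members were 7 of 39, against 1.65% of all features called above 0. They were miR-127 (2.27 ± 0.48, adjusted p 0.00545), miR-411c-5p (1.82 ± 0.40, adjusted p 0.00788), miR-381 (2.13 ± 0.48, adjusted p 0.00861), miR-411a, miR-493, miR-369-3p and miR-376b. These come from 1 imprinted region, so they cannot be taken as independent of one another. Of 27 alternatives, miR-376b (adjusted p 0.0237) was called in 12 and miR-369-3p (adjusted p 0.0310) in 14. Each other called member was called in 21 to 25. The number called depended on the animals, as did the calls over all features. It was 0 of 6 calls in all without animal 1, 12 of 22 without animal 2, 3 of 9 without animal 3, 2 of 10 without animal 4, 2 of 8 without animal 5 and 7 of 16 without animal 6. Without single libraries it ran from 3 of 9 calls (PRAT library 3) to 11 of 23 (IAT library 6) and 11 of 21 (PRAT library 2). Members made up 14 of 33 calls by DESeq2, 14 of 24 by limma and 13 of 24 with library totals alone, against 7 of 18 here. In each of these settings at least 37 of 39 members were above 0.

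**Figure D4:**
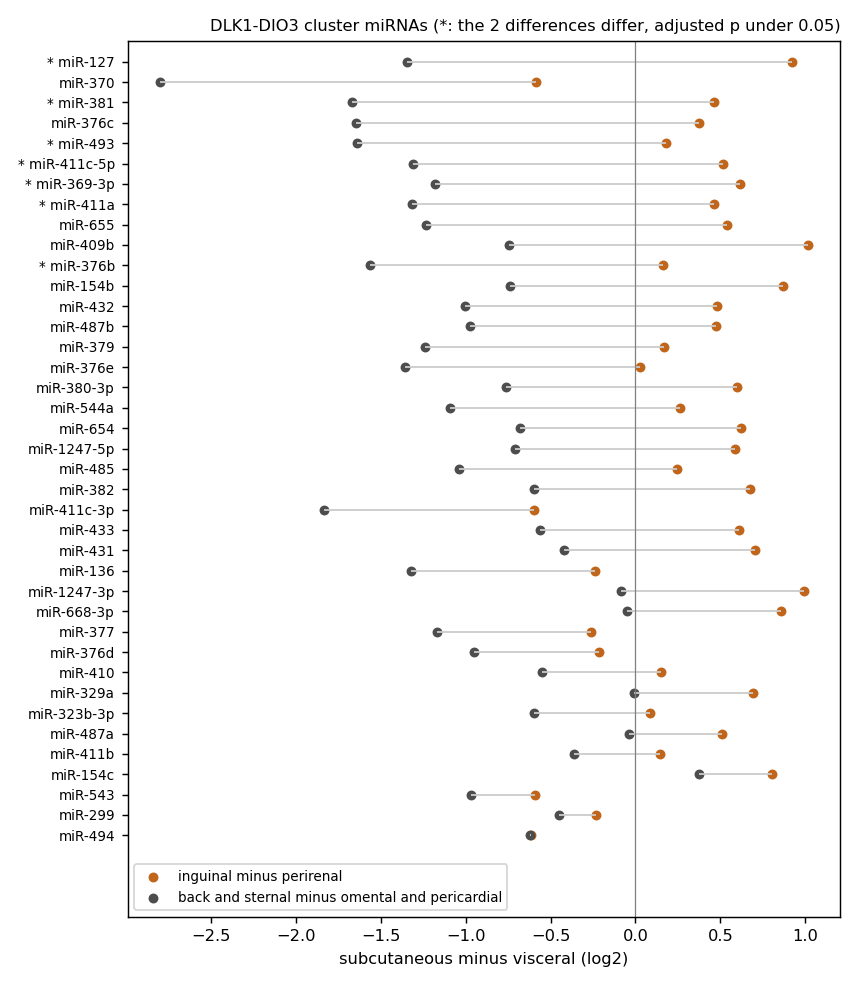
Log2 differences of the 39 tested DLK1-DIO3 miRNAs, sorted by the gap between them, for inguinal minus perirenal fat (orange) and back and sternal minus omental and pericardial fat (grey). Stars mark the 7 members for which the gap passed the test. The orange points lie right of the grey points for all 39.

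The 7 calls of the second contrast beyond the named members of both groups were miR-3578, miR-1949, miR-1839 and 4 candidate loci. miR-1839 had a second contrast of −1.22 with an adjusted p of 0.0487 in edgeR's test. It was called in 6 of 27 alternatives. The loci were NC_059176.1_40486 (2.23), NC_059176.1_40495 (1.97), NC_059176.1_40497 (1.58) and NC_059159.1_8293 (−1.75). Candidate loci are not paired with miRNA names here, so whether these belong to either group was not tested. miR-3578 stayed under 5 CPM in both depots, with 1.11, 1.74 and 4.58 CPM in IAT and 0.327, 0.773 and 2.28 CPM in PRAT. Its second contrast was 2.83 ± 0.57 (adjusted p 0.00341). miR-1949 was lower in IAT, with 0.134, 0.990 and 2.00 CPM in IAT and 1.45, 2.89 and 8.38 CPM in PRAT, lower in 6 of 6 animals, and its second contrast was −2.21 ± 0.56 (adjusted p 0.0188). Its inguinal minus perirenal difference was −1.83 ± 0.46, with an adjusted p of 0.0531.

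For blood, immune, muscle, endothelial and ciliated cells, no marker miRNA passed the test. The erythroid list, which reports blood left in the tissue, was lower in IAT for all 3 tested members, with a median of −1.13 and 2 unadjusted p under 0.05, but with no call by edgeR, DESeq2 or limma. miR-451, matured by Argonaute 2 in red cells, had 15211, 22199 and 73147 CPM in IAT and 38774, 66022 and 93168 CPM in PRAT. IAT libraries 3 and 6 were the highest in IAT, and IAT was lower in 4 of 6 animals, so the fitted −1.13 ± 0.40 (adjusted p 0.288) does not hold in each animal. All 8 tested leukocyte miRNAs were below 0, with a median of −0.80. None had an unadjusted p under 0.05, and none was called by any of the 3 tools. miR-150, a lymphocyte miRNA, had 1651.3, 3589.8 and 22250.5 CPM in IAT and 3986, 9004 and 20876 CPM in PRAT, a difference of −1.07 ± 0.55 (adjusted p 0.524). The summed leukocyte level was 3202.2 to 28268 CPM in IAT and 5635 to 27624 CPM in PRAT, highest in IAT library 6 and PRAT library 3. The part of blood and immune cells in the differences above was not tested.

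Muscle miRNA stood out in 1 library. miR-1, the miRNA of striated muscle, reached 1209.8 CPM in PRAT library 6, while the other 5 PRAT libraries had 27.5 to 81.8 CPM and IAT libraries 22.0 to 101 CPM. Of 6 tested muscle miRNAs 5 were below 0, with a median of −0.47. None had an unadjusted p under 0.05 or was called by any of the 3 tools. The endothelial miR-126-3p was −0.10 ± 0.22 (95% interval −0.54 to 0.35, adjusted p 0.859), which leaves less than a 2-fold difference in either direction. miR-449a, a ciliated-cell miRNA, was −0.81 ± 0.57 (adjusted p 0.580), and miR-375, of pancreatic islets and endocrine cells, was 1.63 ± 1.53 (adjusted p 0.669) with 0.218 to 241 CPM in IAT and 0.854 to 45.2 CPM in PRAT.

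Among miRNAs with reported roles in fat, none passed the test. Of 17 tested brown and beige fat miRNAs, 11 were above 0 and 6 below, with a median of 0.13. Of 20 pro-adipogenic miRNAs 9 were above 0 and 11 below, with a median of −0.15. Of 19 anti-adipogenic miRNAs 13 were above 0 and 6 below, with a median of 0.09. No member of the 3 lists was called by edgeR, DESeq2 or limma. An unadjusted p under 0.05 was found for 1 brown and beige member (miR-455-3p, 0.65 ± 0.30, adjusted p 0.459), for 1 pro-adipogenic member (miR-335, −1.35 ± 0.65, adjusted p 0.491) and for 4 anti-adipogenic members, all higher in IAT (miR-224, miR-22-5p and both arms of miR-27a).

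Families linked to growth and differentiation gave no call by edgeR, DESeq2 or limma. In the miR-17-92 cluster and its paralogues, which support proliferation, 13 of 14 tested arms were below 0, with a median of −0.65 and 1 unadjusted p under 0.05. miR-25, the most abundant of them, was above 0 (0.33 ± 0.22, adjusted p 0.564 in edgeR's test). The summed level of this list had medians of 3195 CPM in IAT and 3030 CPM in PRAT. All 6 tested arms of the miR-424 and miR-503 cluster were below 0 (median −0.78, no unadjusted p under 0.05), as were all 6 of the miR-30 family (median −0.36, none), which supports adipocyte formation. The summed miR-30 level had medians of 3178 CPM in IAT and 3032 CPM in PRAT. In the other depots the miR-30 median was on the opposite side, 0.41 for back and sternal against omental and pericardial fat, and the test of the difference called no member. The miR-29 family, which restrains collagen genes, had a median of −0.03, and for all 5 tested arms the 95% interval lay within a 2-fold difference in either direction. For let-7, the family that marks differentiated cells, this held for 8 of 10 arms, with a median of −0.04. let-7c was the exception on the high side, with 32118, 70875 and 135248 CPM in IAT and 24934, 34229 and 79706 CPM in PRAT, and a log2 difference of 0.71 ± 0.30 (adjusted p 0.387). It was higher in IAT in 5 of 6 animals.

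**Figure D5:**
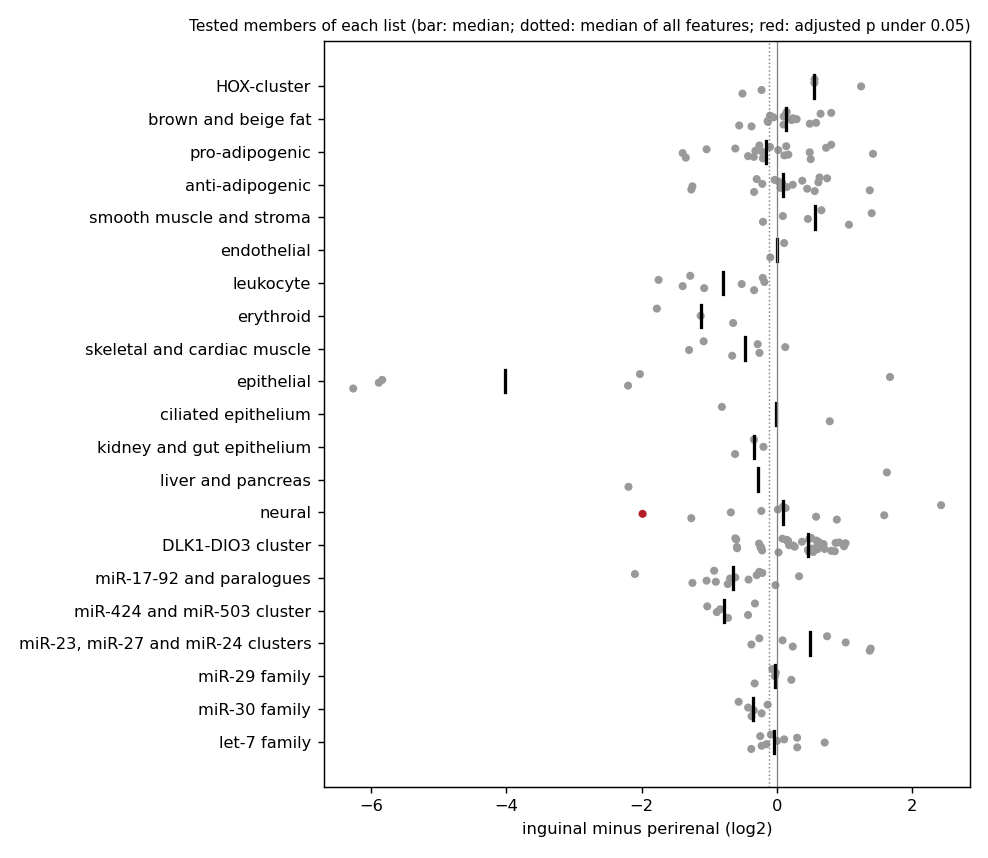
Inguinal minus perirenal log2 difference of every tested member of 21 miRNA lists, with the median of each list as a bar and the median of all 667 features as a dotted line. Red marks miR-9-5p, the member with an adjusted p under 0.05. The epithelial list lies farthest left, and the adipogenic, brown fat, miR-29 and let-7 lists lie around 0.

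The most abundant named miRNAs did not pass the test. miR-26a and miR-26c, near-identical members of a family active in fat cell formation, cannot be read singly. miR-26a took 92.6 to 97.0% of the pair's counts in 7 libraries (4 of IAT and 3 of PRAT) and 4.95 to 18.6% in the other 5. Their sum was 114949 ± 18447 CPM in IAT and 107262 ± 21128 CPM in PRAT (SD, n = 6 each). let-7f, at 42802 CPM in the median IAT and 44974 in the median PRAT library, differed by −0.22 ± 0.20 (adjusted p 0.655).

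Fewer features were detected in inguinal fat. IAT libraries held 901 ± 20.4 features with at least 1 count and PRAT libraries 990 ± 56.4 (SD, n = 6 each). IAT was lower in 6 of 6 animals, by 89.0 on average, with an exact two-sided sign-flip permutation p of 0.03125, the smallest that 6 animals allow. The PRAT libraries of letter A held 1030, 1022 and 1042 features and those of letter B 1002, 950 and 896. In the 3 animals whose libraries are both of letter B the mean difference was −47.0. Their IAT libraries 3, 5 and 6 held 882, 931 and 894 features, so most of this mean came from animal 3. The part of the letter in the difference was not tested. Candidate loci took 23.2 ± 2.23% of counts in IAT and 20.4 ± 4.57% in PRAT (exact permutation p 0.34375).

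Precision set a limit to what could be seen. The 95% interval lay within a 2-fold difference in either direction for 97 of 284 features averaging 10 CPM or more (34.2%) and for 24 of 383 below it (6.27%). The absence of a call therefore does not show that both depots have the same level.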

How the data were processed

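As the authors deposited them, the data were raw read counts for each miRNA and library, in whole numbers, with RPM given separately. Deposited RPM matched the scaled counts to within 4.79e-06. The submitters' processing notes name DESeq2 1.24.0. In the sources used here, no aligner, caller or build is given. A lipid tissue kit served for RNA and a TruSeq kit for libraries, per the labels' protocols. A blank row of 0 counts was left out.

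All 36 libraries were fitted in R 4.3.3 with edgeR 4.0.16 (TMM, filterByExpr with a minimum count of 10, robust quasi-likelihood fit), with 1 coefficient per depot and the animal as a block, which left 25 residual degrees of freedom. The p-values, all two-sided, were adjusted over 667 features (Benjamini-Hochberg, threshold 0.05). An SE is the size of a difference over the square root of F. CPM use TMM-scaled totals, and directions in single animals come from log2 CPM with a prior count of 2. The second contrast was (IAT minus PRAT) minus (mean of BSAT and SSAT minus mean of OAT and PCAT), and its 2 differences use separate libraries. The fit was checked on simulated data.

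The numbers pair the libraries because each animal gave every depot. Deviations from depot means correlated by 0.186 on average between the IAT and PRAT libraries of 1 animal (over 0.1 in 3 of 6 pairs) and by −0.0351 between animals. No 2 of the 12 libraries agreed within sampling noise (smallest chi-square per degree of freedom 1030).

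Named were called features that reached 10 CPM in the higher depot and moved one way in 5 or more of 6 animals (the 12 miRNAs and 3 candidate loci with the largest difference each way), every tested HOX-cluster member, the 5 most abundant miRNAs, the called members (at most 4) or else the most abundant member of each list, and the 4 miRNAs with the smallest p each way among calls of the second contrast. Other names were chosen after values were seen. Members and lists were chosen with earlier results of these data known, and lists are described by counts and medians. Alternatives were RLE factors, library totals, no filter, at least 10 CPM, no block, the 12 libraries alone, DESeq2 1.42.0, limma 3.58.1 on log2(RPM + 1), the library letter as covariate, letter B alone, and each animal or library left out. The 4 depot pairs sharing no library with IAT or PRAT were added after the data were seen.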

Additional observations from a re-analysis of the deposited data

Results flagged for a closer look

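Within a depot, 56 groups of 6 libraries were checked with Dixon's test on a log2 scale. In 4 of them a library's gap to its neighbour, as a share of the range, exceeded the 95% critical value. Chance gives about 1 in 20. The levels below are in CPM. miR-1 was at 1209.8 CPM in PRAT library 6, and at 27.5 to 81.8 CPM in the other 5. miR-200a was at 35.4 CPM in IAT library 6, and at 0.430 to 1.09 CPM in the others. For animal 6 the back library (31.6 CPM, others at most 1.90) and the sternal library (10.8 CPM, others at most 2.22) were also highest in their depots. The omental, pericardial and perirenal libraries of that animal were not. miR-192 was at 1513 CPM in PRAT library 2, and at 664 to 904 CPM in the others. miR-381 was at 4.91 CPM in IAT library 6, and at 21.7 to 48.7 CPM in the others.

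The second contrast tested the gap between the inguinal minus perirenal difference and that of back and sternal against omental and pericardial fat. In edgeR 18 of 667 features passed. Given here are 8 of them, the 4 named miRNAs with the smallest p in each direction. The log2 gap was −2.06 for miR-10a, −2.26 for miR-10b, −4.06 for miR-196a and −5.41 for miR-196b, with adjusted p from 3.28e-05 to 0.00341. It was 2.27 for miR-127, 2.83 for miR-3578, 1.82 for miR-411c-5p and 2.13 for miR-381, with adjusted p from 0.00341 to 0.00861. The reasons for these gaps were not tested.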

How the results depend on the processing

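The number of features called between inguinal and perirenal fat was 1, and it moved with most settings. It was 4 with no replicate block, that is without pairing by animal (3 higher, 1 lower), 1 (another feature, the candidate locus NC_059165.1_25336) in the 12 libraries with the block and 0 in the 12 without it. It was 3 with library totals alone, 7 with a mean of at least 10 CPM, 14 by DESeq2, 5 by limma, and 0 with the letter as a covariate or in letter B libraries alone. RLE factors and no filter kept 1, miR-9-5p. Leaving out an animal gave 0 to 9, and leaving out a library 0 to 10. Called 0 times were the fits without animal 1, 2, 4 or 5, without IAT library 1, 2, 4 or 5, and without PRAT library 1, 2 or 5, with 49 to 68 features at an unadjusted p under 0.05. That count was 46 in the 12 libraries without the block, 49 with the letter as a covariate and 71 in letter B libraries alone. miR-9-5p was called in 14 of 29 alternatives, miR-199b in 12, miR-429, miR-200b and miR-23a in 8 each and miR-200a in 7, and none of these changed direction.

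The second contrast gave 18 calls, 14 with no replicate block, and 33 by DESeq2. It ran from 6 (without animal 1) to 22 without animals, and from 9 (without PRAT library 3) to 23 without single libraries. Library totals alone moved the median of all features to −0.20 for the first contrast, against −0.11 with TMM, and to 0.14 for the second, against −0.02. The median SE was 0.649 under 10 CPM and 0.386 from 10 CPM up.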

Other observations

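No candidate locus without a miRNA name passed the test between the depots, and 2 abundant ones lay near the threshold. NC_059165.1_25340 had 16702, 45859 and 94288 CPM as lowest, median and highest values in IAT and 15922, 19347 and 26735 CPM in PRAT, with a log2 difference of 1.15 ± 0.28 and an adjusted p of 0.0531 in edgeR's test. It was higher in IAT in 6 of 6 animals, and it was called in 11 of 29 alternatives. NC_059165.1_25336 had 1814, 8219 and 17894 CPM in IAT and 547, 1578 and 2755 CPM in PRAT, higher in 6 of 6 animals, a difference of 2.30 ± 0.69 with an adjusted p of 0.125. It was the call of the blocked fit of the 12 libraries (2.19 ± 0.28, adjusted p 0.0130).

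miR-497, which is made with miR-195 and belongs to the miR-15 and miR-16 family of cell cycle repressors, had 608, 1062 and 1586 CPM in IAT and 401, 526 and 929 CPM in PRAT. It was higher in IAT in 5 of 6 animals, with a log2 difference of 0.90 ± 0.25 and an adjusted p of 0.0727 in edgeR's test.

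The library letter gave 5 calls of its own among 667 features (0.750%) in the fit with depot and animal, all candidate loci and all lower in letter B.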
